A study of Mus musculus with 12 samples.

Results

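The non-classical major histocompatibility complex (MHC) class I genes examined here were H2-Q4, H2-Q5, H2-Q6, H2-Q7, H2-T10, H2-T22, H2-T23, H2-T24 and H2-M3. These 9 genes were taken by gene name and were found by identifier among 53379 genes in the count table. Polyadenylated RNA was sequenced from a lymphoma line of Eµ-myc mice, in which an immunoglobulin heavy chain enhancer drives the Myc oncogene in B cells; the strain was C57BL/6. There were 12 libraries in 4 groups of 3. One group was left unstimulated, and the other groups received 5 ng/mL recombinant mouse interferon gamma (IFN-γ) for 1, 6 or 24 h. The 1 h and 6 h exposures were ended by adding 50 µg/mL of the neutralising anti-IFN-γ antibody XMG1.2. Harvest was at 24 h after stimulation, so the 1 h and 6 h libraries measured levels some time after IFN-γ was blocked. No library was taken at the time of blocking, so RNA left from an earlier rise and RNA made later cannot be told apart. The labels do not state whether the unstimulated or 24 h cells received antibody, when the unstimulated cells were harvested, or whether replicates were separate cultures. The p-values therefore measure the spread between these samples, which may be technical.

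Class I molecules consist of a heavy chain and the light chain beta-2-microglobulin. Classical heavy chains, H2-K and H2-D in this strain, are abundant, very variable between individuals, and present peptides to CD8 T cells. Non-classical heavy chains have a similar fold, vary little between individuals, and often show one kind of ligand to innate-like lymphocytes or natural killer (NK) cells. Qa-1, encoded by H2-T23, presents leader peptides of classical chains to the NK cell receptor pair CD94 and NKG2A. H2-M3 presents N-formylated peptides, which come from bacteria and mitochondria. H2-T22 and H2-T10 are ligands of a subset of gamma delta T cell receptors and hold no peptide. Qa-2 molecules, encoded by H2-Q7 and its close relative H2-Q6, are attached to the membrane by a lipid anchor, and H2-Q4 encodes the chain of the secreted molecule Qb-1. IFN-γ acts on class I genes through the interferon regulatory factors (IRF), among others, and the transactivator NLRC5, which works at the promoter with the RFX factors.

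The promoters are shown because class I genes share a known compact set of upstream elements, and the 9 genes differed in their RNA level at harvest after a short exposure. RefSeq promoter sequence was at hand for 6 of the 9 genes (H2-Q4, H2-Q6, H2-Q7, H2-T22, H2-T23 and H2-M3). The lines below read 5′ to 3′ on the gene's strand, with the last base next to the gene's start. In the H2-Q lines the capitals mark, in order, the letters GGGGATTNC (an NF-kB element), TTTCACTT (part of an IRF element), TGATGAC (an X2-like element) and the CCAAT box, which is written ATTGG where it lies on the opposite strand. All motifs were searched on both strands, and they were chosen with these promoters in view.
H2-Q4 (GRCm38.p6, chr17:35379417-35379616, plus strand): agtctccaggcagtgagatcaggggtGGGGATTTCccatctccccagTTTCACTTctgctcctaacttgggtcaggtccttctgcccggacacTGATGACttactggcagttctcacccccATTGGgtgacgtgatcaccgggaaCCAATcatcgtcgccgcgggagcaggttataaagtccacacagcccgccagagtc
H2-Q6 (GRCm38.p6, chr17:35424650-35424849, plus strand): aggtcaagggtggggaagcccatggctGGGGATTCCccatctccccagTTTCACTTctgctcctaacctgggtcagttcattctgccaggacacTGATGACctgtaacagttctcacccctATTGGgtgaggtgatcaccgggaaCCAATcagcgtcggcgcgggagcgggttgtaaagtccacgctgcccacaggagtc
H2-Q7 (GRCm38.p6, chr17:35438955-35439154, plus strand): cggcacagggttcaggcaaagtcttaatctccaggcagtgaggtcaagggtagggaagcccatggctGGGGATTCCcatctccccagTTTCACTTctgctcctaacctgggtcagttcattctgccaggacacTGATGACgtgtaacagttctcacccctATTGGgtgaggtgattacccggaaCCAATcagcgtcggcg

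Next come the windows of H2-T22, H2-M3 and H2-T23. H2-T22 and H2-M3 are cut 5 and 14 bases short of the RefSeq start, because the GENCODE annotation starts these genes further upstream. For H2-T23 only 30 bases are shown, since the GENCODE gene already covers them. Capitals in H2-T22 mark the IRF letters run together with the core of an interferon-stimulated response element (ISRE; TTTCNNTTT), then TGATGAC and the CCAAT boxes. In H2-M3 they mark TTTCACTT, TGATGAC and CCAAT boxes, and in H2-T23 the ISRE core.
H2-T22 (GRCm38.p6, chr17:36042748-36042942, minus strand): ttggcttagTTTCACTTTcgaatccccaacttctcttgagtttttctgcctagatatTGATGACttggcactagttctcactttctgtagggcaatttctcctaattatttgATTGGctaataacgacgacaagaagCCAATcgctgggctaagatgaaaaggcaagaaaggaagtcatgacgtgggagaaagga
H2-M3 (GRCm38.p6, chr17:37270034-37270219, plus strand): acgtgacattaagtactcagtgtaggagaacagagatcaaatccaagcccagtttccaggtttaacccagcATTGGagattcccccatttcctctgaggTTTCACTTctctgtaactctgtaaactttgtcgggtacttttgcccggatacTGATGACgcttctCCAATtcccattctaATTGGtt
H2-T23 (GRCm38.p6, chr17:36032806-36032835, minus strand): atcctactgcTTTCTCTTTcataaagacac

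Within the 250 bases upstream of the RefSeq start, GGGGATTNC was found in H2-Q4, H2-Q6 and H2-Q7, and in 0.667% of all 32851 promoters in the table. TTTCACTT was found in these 3 and in H2-T22 and H2-M3, against 1.36% of all promoters. TGATGAC was found in the same 5 genes and in 2.69% of all promoters. The ISRE core was in H2-T22, where it overlaps TTTCACTT, and in H2-T23, against 9.37% of all promoters. A CCAAT box was in all 6 and in 33.8% of all promoters. The letters TTCNNNGAA, a gamma-activated site, were found in H2-M3, upstream of the window shown, and in 7.02% of all promoters. For H2-T23, 154 of the 250 bases lie inside the GENCODE gene, the ISRE core among them. Less sequence upstream of that gene was therefore searched, and a motif not found there may lie further upstream. A match of letters is a description and not evidence that a factor binds.

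Library totals ran from 49440358 to 67096610 counts, and 14299 genes had enough counts to be tested, all 9 among them. H2-Q7 passed this filter through the exposed groups, since the unstimulated libraries held 1, 6 and 2 of its counts. All 9 B cell markers examined were detected, with a summed level of 2593 to 2950 CPM (counts scaled to the library total) per library. That sum was 2593 to 2630 CPM after 24 h and 2787 to 2860 CPM in unstimulated cells, with 2 of the 9 markers called higher and 5 lower after 24 h. The 10 T and NK cell markers summed to 0.692 to 1.44 CPM, with 4 at 0 in all libraries, and the 10 myeloid markers to 5.35 to 7.01 CPM, with 2 at 0. Of these, 1 T and NK cell marker (Cd3g) and 3 myeloid markers (Cd68, Csf1r and Itgam) had enough counts to be tested, and none of the 4 was called between 24 h and unstimulated cells. Itgam was lower after 24 h than after 1 h, at 1.27 ± 0.238 CPM against 2.46 ± 0.341 CPM (log2 fold change -0.96 ± 0.19, edgeR adjusted p = 0.00047), and its part in the results was not tested. IFNg_6h replicate 3 stood apart most within its group. A chi-square per degree of freedom, on counts halved to read pairs, was 7.80 and 7.84 against its fellow replicates. These differed from each other by 2.40. Smaller gaps were seen for IFNg_24h replicate 3, at 6.69 and 5.76 against 3.10 between its fellows. IFNg_1h replicate 1 (6.19 and 5.00, against 3.58) and unstimulated replicate 2 (5.34 and 6.09, against 3.80) showed them too. Leaving out IFNg_6h replicate 3 changed none of the counts of the 9 genes called below. In RNA of a whole culture, fewer cells making a transcript and less transcript per cell cannot be told apart.

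All 9 genes were higher after 24 h of IFN-γ than in unstimulated cells, 5 were higher after 6 h and 2 after 1 h, and none was lower. H2-Q7 had the largest fold change after 24 h, 33.1-fold, and H2-T22 the smallest, 2.51-fold. The value for H2-Q7 (5.05 on the log2 scale) rests on 9 counts in unstimulated cells and was 6.07 on that scale without unstimulated replicate 2. A gene was called when its adjusted p was under 0.05 in edgeR's quasi-likelihood test with Benjamini-Hochberg adjustment over all genes tested, and all adjusted p-values below come from that fit. By the same rule 10.3% of all genes tested were higher after 24 h (18.7% in either direction), 1.17% after 6 h (1.59%) and 0.273% after 1 h (0.42%). The median log2 fold change of the 9 genes was 2.02 after 24 h, 0.89 after 6 h and 0.43 after 1 h, while the median over all genes was within 0.01 of 0 in each comparison. The 3 comparisons share the unstimulated libraries. The genes called after 6 h were H2-Q4, H2-Q5, H2-Q6, H2-Q7 and H2-T10, and those called after 1 h were H2-Q4 and H2-Q5.

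**Figure D1:**
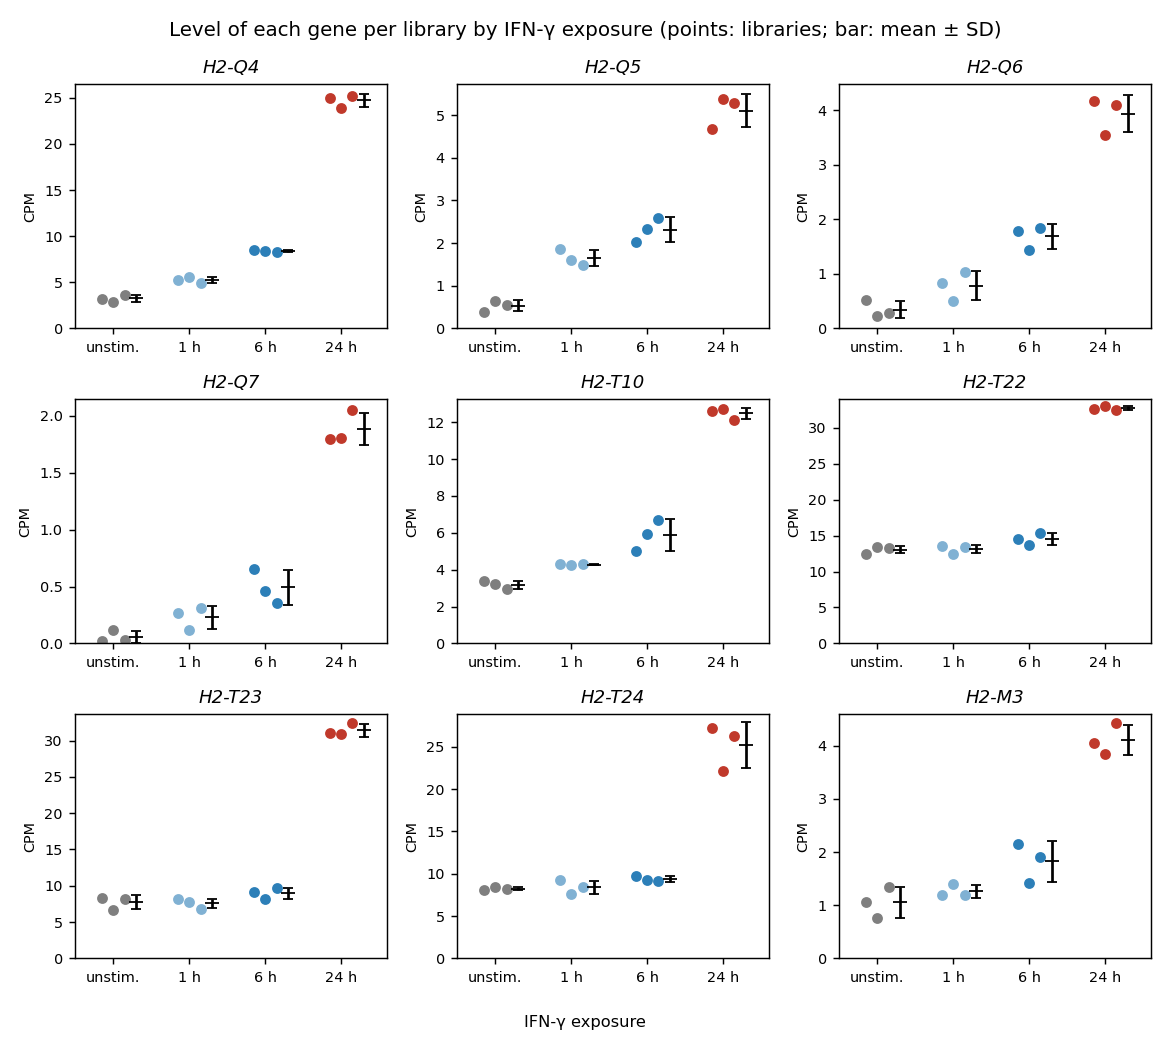
Level of each of the 9 genes in CPM (vertical axis, from 0, scaled per panel) in the 12 libraries, by IFN-γ exposure (horizontal axis); points are libraries and the black bar is the mean ± SD (n = 3). Every 24 h library lay above every other library for each gene. The share of all genes tested that separate in this way was not counted. The 4 H2-Q genes and H2-T10 also rose after 6 h, whereas H2-T22, H2-T23, H2-T24 and H2-M3 were not called after 6 h.

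**Figure D2:**
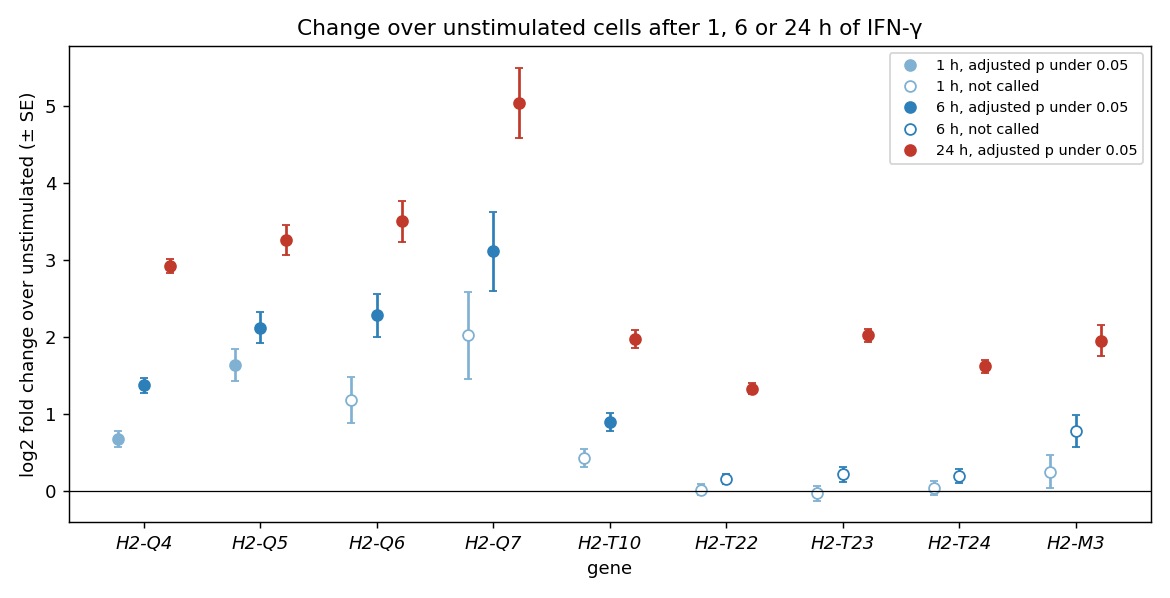
Log2 fold change over unstimulated cells ± SE (vertical axis) of each gene after 1, 6 and 24 h of IFN-γ; filled points passed an adjusted p of 0.05 in edgeR and open points did not. All 9 points at 24 h are filled, 5 at 6 h and 2 at 1 h.

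The H2-Q genes lie together on chromosome 17, within 35379617 to 35443773 on the plus strand of GRCm38. H2-Q4, the chain of Qb-1, was the most abundant of them. It had 3.24, 2.84 and 3.65 CPM in unstimulated libraries, 5.20, 5.52 and 4.88 CPM after 1 h, 8.5, 8.43 and 8.31 CPM after 6 h, and 25, 23.9 and 25.2 CPM after 24 h. No library of one group overlapped with another group, and the order followed the length of exposure. How many of all genes tested separate in this way was not counted, here or for the genes below. Over unstimulated cells its log2 fold change was 2.92 ± 0.10 (SE) after 24 h (adjusted p = 4.86e-20), 1.37 ± 0.10 after 6 h (adjusted p = 2.63e-10) and 0.68 ± 0.10 after 1 h (adjusted p = 0.000647). H2-Q4 was the only one of the 9 genes that was also called between 6 h and 1 h.

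H2-Q5 is annotated by GENCODE as a polymorphic pseudogene, a gene that is intact in some mouse strains and not in others. It had 0.395, 0.641 and 0.560 CPM in unstimulated libraries, 1.86, 1.60 and 1.49 CPM after 1 h, 2.02, 2.32 and 2.60 CPM after 6 h, and 4.67, 5.37 and 5.28 CPM after 24 h. Again no groups overlapped, and the 1 h libraries already stood well above the unstimulated ones. Its log2 fold change was 3.26 ± 0.20 after 24 h (adjusted p = 1.25e-13), 2.12 ± 0.21 after 6 h (adjusted p = 1.21e-07) and 1.63 ± 0.21 after 1 h (adjusted p = 6.33e-05). H2-Q5 had the larger fold change of the genes called after 1 h, at 3.10-fold against 1.60-fold for H2-Q4; the difference between the genes was not tested.

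H2-Q6 and H2-Q7, the Qa-2 genes among the 9, were the least abundant of these. H2-Q6 had 0.521, 0.220 and 0.289 CPM in unstimulated libraries, 0.826, 0.501 and 1.03 CPM after 1 h, 1.79, 1.43 and 1.85 CPM after 6 h, and 4.17, 3.54 and 4.10 CPM after 24 h. IFNg_1h replicate 2 fell below the highest unstimulated library, and the 6 h and 24 h groups overlapped with no other. Relative to unstimulated cells, H2-Q6 changed by 3.50 ± 0.27 on the log2 scale after 24 h (adjusted p = 2.54e-11) and by 2.28 ± 0.28 after 6 h (adjusted p = 6.49e-06). After 1 h it was 1.18 ± 0.30 (adjusted p = 0.0834), which was not called; without IFNg_1h replicate 2 it was 1.42 and was called (adjusted p = 0.0343). With other libraries left out it ranged from 0.93 without IFNg_1h replicate 3 (adjusted p = 0.482) to 1.60 without unstimulated replicate 1 (adjusted p = 0.0571), neither of them called.

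H2-Q7 was almost silent without IFN-γ. It had 0.018, 0.120 and 0.034 CPM in unstimulated libraries, 0.264, 0.117 and 0.310 CPM after 1 h, 0.656, 0.464 and 0.356 CPM after 6 h, and 1.80, 1.81 and 2.05 CPM after 24 h. These levels stand for 9, 41, 83 and 343 counts summed over the unstimulated, 1 h, 6 h and 24 h groups. The 1 h and unstimulated groups overlapped by a small margin, through IFNg_1h replicate 2 and unstimulated replicate 2. The log2 fold change was 5.05 ± 0.46 after 24 h (adjusted p = 1.19e-09) and 3.11 ± 0.51 after 6 h (adjusted p = 6e-04). After 1 h it was 2.02 ± 0.57 and not called (adjusted p = 0.136); without unstimulated replicate 2, which held 6 of the 9 counts, it was 3.03 (adjusted p = 0.0336). Without that library the log2 fold change was 6.07 after 24 h and 4.13 after 6 h; with any 1 library left out it was at least 4.64 after 24 h and 2.70 after 6 h, and both stayed called.

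H2-T10 and H2-T22 are the ligands of gamma delta T cell receptors; H2-T10 was called after 6 h and H2-T22 was not, and the difference between them was not tested. H2-T10 (chromosome 17, 36115876 to 36121465, minus strand), also a polymorphic pseudogene in GENCODE, had 3.36, 3.23 and 2.95 CPM in unstimulated libraries, 4.29, 4.24 and 4.29 CPM after 1 h, 5.00, 5.95 and 6.72 CPM after 6 h, and 12.6, 12.7 and 12.1 CPM after 24 h. None of its groups overlapped. For H2-T10 the log2 fold change was 1.97 ± 0.11 after 24 h (adjusted p = 3.58e-14), 0.89 ± 0.12 after 6 h (adjusted p = 2.06e-05) and 0.43 ± 0.12 after 1 h (adjusted p = 0.13); the last was not called.

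H2-T22 (36037128 to 36042747, minus strand) had 12.4, 13.4 and 13.2 CPM in unstimulated libraries, 13.6, 12.5 and 13.4 CPM after 1 h, 14.5, 13.7 and 15.3 CPM after 6 h, and 32.6, 33.0 and 32.5 CPM after 24 h. The 1 h libraries lay among the unstimulated ones, and the 6 h libraries just above both. The log2 fold change was 1.33 ± 0.07 after 24 h (adjusted p = 4.25e-15), the smallest of the 9, and neither 0.15 ± 0.07 after 6 h (adjusted p = 0.331) nor 0.01 ± 0.07 after 1 h (adjusted p = 0.972) was called.

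H2-T23, the heavy chain of Qa-1 (36029773 to 36032855, minus strand), had the largest gain of the 9 in CPM after 24 h. It had 8.38, 6.61 and 8.20 CPM in unstimulated libraries, 8.14, 7.72 and 6.87 CPM after 1 h, 9.08, 8.18 and 9.68 CPM after 6 h, and 31.0, 30.9 and 32.4 CPM after 24 h. Both short exposures overlapped with the unstimulated group, and the 24 h libraries stood far above all others. Qa-1 RNA had a log2 fold change of 2.02 ± 0.09 after 24 h (adjusted p = 1.06e-16), 0.21 ± 0.09 after 6 h (adjusted p = 0.308) and -0.03 ± 0.10 after 1 h (adjusted p = 0.95).

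H2-T24 (36005695 to 36020560, minus strand) was, like H2-T23, called after 24 h and after neither short exposure. It had 8.07, 8.39 and 8.19 CPM in unstimulated libraries, 9.21, 7.64 and 8.38 CPM after 1 h, 9.74, 9.28 and 9.12 CPM after 6 h, and 27.2, 22.1 and 26.3 CPM after 24 h. The 1 h group overlapped with the unstimulated and the 6 h groups, while the 6 h libraries lay just above the unstimulated ones. Its log2 fold change was 1.62 ± 0.09 after 24 h (adjusted p = 1.26e-14), 0.19 ± 0.09 after 6 h (adjusted p = 0.346) and 0.03 ± 0.09 after 1 h (adjusted p = 0.946).

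H2-M3, which presents N-formylated peptides, lies apart from the other 8 (37270220 to 37274484, plus strand). It had 1.06, 0.761 and 1.34 CPM in unstimulated libraries, 1.20, 1.4 and 1.19 CPM after 1 h, 2.16, 1.41 and 1.91 CPM after 6 h, and 4.05, 3.85 and 4.42 CPM after 24 h. The 6 h libraries were above the unstimulated and 1 h ones, the lowest by a small margin. The log2 fold change was 1.95 ± 0.20 after 24 h (adjusted p = 1.57e-08) and 0.25 ± 0.22 after 1 h (adjusted p = 0.778). After 6 h it was 0.78 ± 0.21 (adjusted p = 0.0543), and this value crossed the threshold without unstimulated replicate 3 (adjusted p = 0.0355) or without IFNg_6h replicate 2 (adjusted p = 0.0387). Over all libraries left out in turn it ranged from 0.60 to 0.99, with an adjusted p of up to 0.233, reached without IFNg_6h replicate 1. A p that misses the threshold does not show that a level was the same as in unstimulated cells.

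The exposures were also compared with one another. After 24 h all 9 genes were higher than after 6 h, where 8.92% of all genes tested were higher and 16.5% were called in either direction, and all 9 were higher than after 1 h, where these shares were 10.2% and 18.9%. The log2 fold change between 24 h and 6 h lay between 1.08 for H2-T10 and 1.93 for H2-Q7, a narrower range than between 24 h and unstimulated cells (1.33 to 5.05). Between 6 h and 1 h only H2-Q4 was called, at 0.69 ± 0.09 on the log2 scale (adjusted p = 0.00014), and 0.0839% of all genes were higher (0.0979% in either direction). The other 8 genes had positive values from 0.14 for H2-T22 to 1.10 for H2-Q6, with adjusted p-values of 0.0989 or above. H2-T10 had 0.46 ± 0.11 (adjusted p = 0.157), and 0.57 without IFNg_6h replicate 1 (adjusted p = 0.044). It was 0.36 without IFNg_6h replicate 3, and with 1 library left out its adjusted p was at most 0.514.

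The level at harvest after a blocked exposure was also expressed as a share of the 24 h rise. This is the CPM gained over the unstimulated mean as a percent of the gain after 24 h. For the H2-Q genes the share after 6 h was 24.1% ± 0.439 for H2-Q4, 39.0% ± 6.34 for H2-Q5, 37.5% ± 6.41 for H2-Q6 and 23.8% ± 8.32 for H2-Q7 (SD, n = 3 each). H2-T10, at 29.1% ± 9.24, and H2-M3, at 25.3% ± 12.6, were in the same range, with wide spreads. H2-T22, H2-T23 and H2-T24 were lower, at 7.40% ± 4.17, 5.29% ± 3.17 and 6.85% ± 1.90. The share for H2-T23 was 3% without unstimulated replicate 2. The highest library of these 3 genes reached 11.6%, against a lowest library of 11.7% among the other 6, in H2-M3.

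After 1 h the share was 24.4% ± 4.23 for H2-Q5 and between 6.83% and 12.3% for H2-Q4, H2-Q6, H2-Q7, H2-T10 and H2-M3. For H2-M3 it depended on the unstimulated libraries, at 2.13% without replicate 2 and 11% without replicate 3. It was 0.634% ± 3.01 for H2-T22, -0.634% ± 2.72 for H2-T23 and 1.14% ± 4.62 for H2-T24, spreads that include 0. As a background, 301 other genes that were called higher after 24 h with a log2 fold change of at least 1 had a median share of 7.13% after 6 h (quartiles 0.373% and 19.2%) and of 1.90% after 1 h (quartiles -0.976% and 10.2%). The 9 genes had medians of 24.1% and 9.12%, and no test was made of this difference. The classical chains and the light chain were at 25.2% ± 1.18 (H2-K1), 27.8% ± 1.16 (H2-D1) and 21.2% ± 5.01 (B2m) after 6 h, and at 8.45% ± 1.15, 11.3% ± 0.978 and 8.63% ± 2.16 after 1 h.

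**Figure D3:**
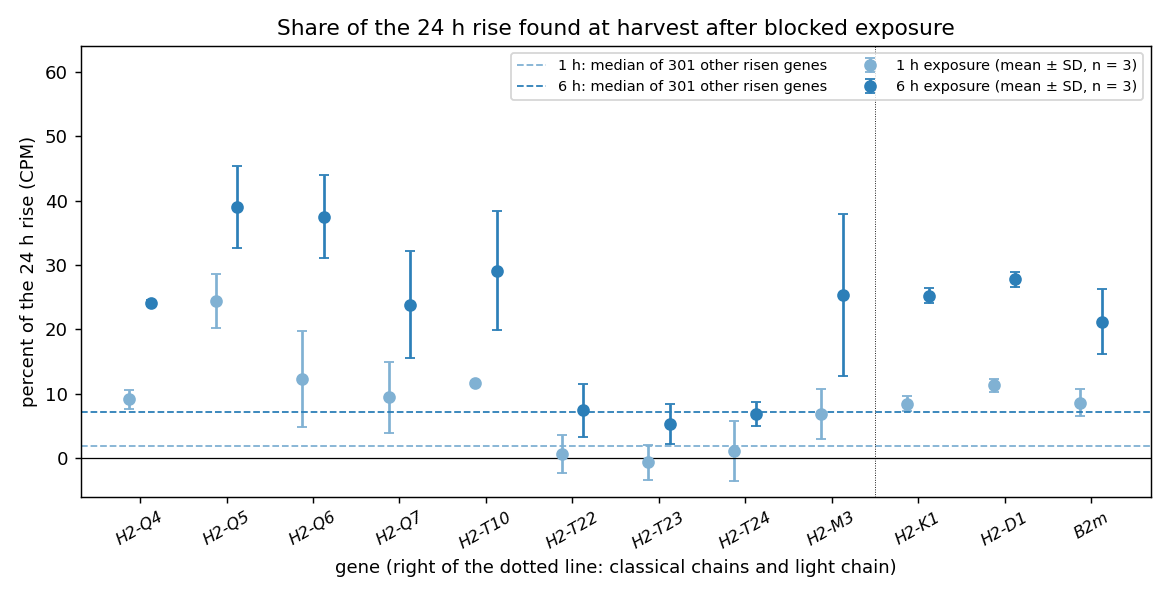
Percent of the 24 h rise in CPM (vertical axis) found at harvest after 1 h and 6 h of IFN-γ, as mean ± SD of 3 libraries. Shown are the 9 genes and, right of the dotted line, the classical chains H2-K1 and H2-D1 and the light chain B2m. Dashed lines are medians over 301 other genes that rose. H2-T22, H2-T23 and H2-T24 lie near 0 after 1 h and near the 7.13% median after 6 h, while the other 6 genes lie between 23.8% and 39.0% after 6 h.

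Among the genes with promoter sequence, the 3 that hold the letters GGGGATTNC in the lines shown above (H2-Q4, H2-Q6 and H2-Q7) were all called after 6 h. H2-T22 and H2-T23, the 2 with the ISRE core and without GGGGATTNC in the bases searched, were called after 24 h only. H2-M3, where neither set of letters was found, was close to the threshold after 6 h (adjusted p = 0.0543). Only these exact letters were searched, so H2-M3 may hold a variant of the NF-kB element. The H2-M3 share of the 24 h rise after 6 h was 25.3%. This was nearer to that of H2-Q4 (24.1%) and H2-Q7 (23.8%) than to that of H2-T22 (7.40%) and H2-T23 (5.29%). TTTCACTT and TGATGAC occur in H2-T22, called only after 24 h, as well as in the 3 H2-Q promoters. These are 6 genes, several of them close relatives, so the promoters are not independent of one another. The motifs were chosen with these promoters in view, and whether they bear on the calls was not tested.

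Levels of different genes were compared per kilobase (kb) of exon. The length joined all annotated exons of a gene, 4265 bases for H2-Q7 and 2085 for its relative H2-Q6. The orders and folds between genes below depend on that length. By CPM alone the order after 24 h began with H2-T22 (32.7), H2-T23 (31.4) and H2-T24 (25.2). In unstimulated cells H2-T22 (3.81 ± 0.149 CPM per kb) and H2-T24 (3.77 ± 0.0751) were highest and overlapped. H2-T23 followed at 2.68 ± 0.337 and H2-Q4 at 1.25 ± 0.155, each apart from its neighbours in the order. H2-T10 (0.930 ± 0.0604) and H2-M3 (0.733 ± 0.202) overlapped, as did H2-Q5 (0.335 ± 0.0787) and H2-Q6 (0.165 ± 0.0756), and H2-Q7 was last at 0.0135 ± 0.0129. The first was 283-fold above the last, a value that rests on the 9 counts of H2-Q7 and was 617-fold without unstimulated replicate 2 (a setting chosen after seeing the data).

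After 24 h the order began with H2-T24 (11.6 ± 1.23 CPM per kb) and H2-T23 (10.9 ± 0.305), which overlapped, then H2-T22 (9.58 ± 0.0808) and H2-Q4 (9.52 ± 0.263), which overlapped as well. H2-T10 (3.65 ± 0.0869) stood alone, H2-Q5 (3.21 ± 0.239) and H2-M3 (2.86 ± 0.200) overlapped, and H2-Q6 (1.89 ± 0.166) and H2-Q7 (0.443 ± 0.0335) came last. The first was 26.1-fold above the last, against 283-fold in unstimulated cells (617-fold without unstimulated replicate 2). For scale, H2-D1 was at 116 ± 6.94 CPM per kb and H2-K1 at 90.9 ± 2.90 after 24 h, against 29.6 ± 2.67 and 15.4 ± 0.923 in unstimulated cells, so each of the 9 genes stayed below both classical chains.

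**Figure D4:**
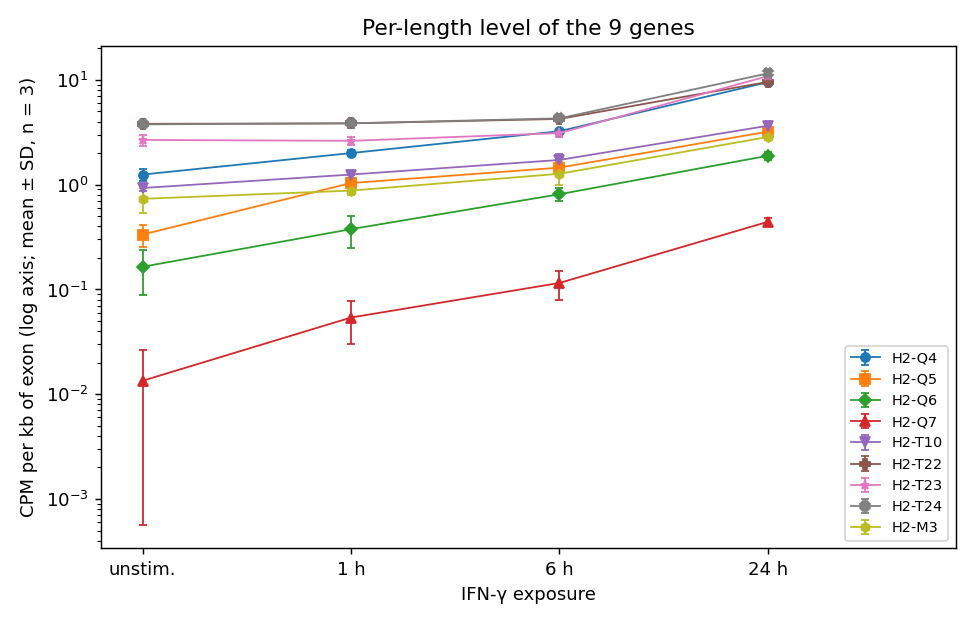
Mean ± SD (n = 3) of CPM per kb of exon (vertical log axis) for the 9 genes, by IFN-γ exposure (horizontal axis). The lines draw together with longer exposure: the highest gene was 283-fold above the lowest in unstimulated cells (617-fold without replicate 2) and 26.1-fold after 24 h.

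The 9 genes together had 37.4 ± 1.13 CPM in unstimulated cells, 42.5 ± 1.78 after 1 h, 53.5 ± 2.36 after 6 h and 141.6 ± 3.84 after 24 h (SD, n = 3 each). Their make-up differed between groups. The H2-Q genes made up 11.2% ± 0.613 of the sum in unstimulated cells, 18.5% ± 0.251 after 1 h, 24.2% ± 0.618 after 6 h and 25.2% ± 0.261 after 24 h, with no overlap between groups. The H2-T genes made up 86.0% ± 1.31, 78.5% ± 0.627, 72.4% ± 0.705 and 71.9% ± 0.364 in the same order of groups, and these shares were not tested. H2-M3 stayed between 2.81% and 3.41% on average.

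**Figure D5:**
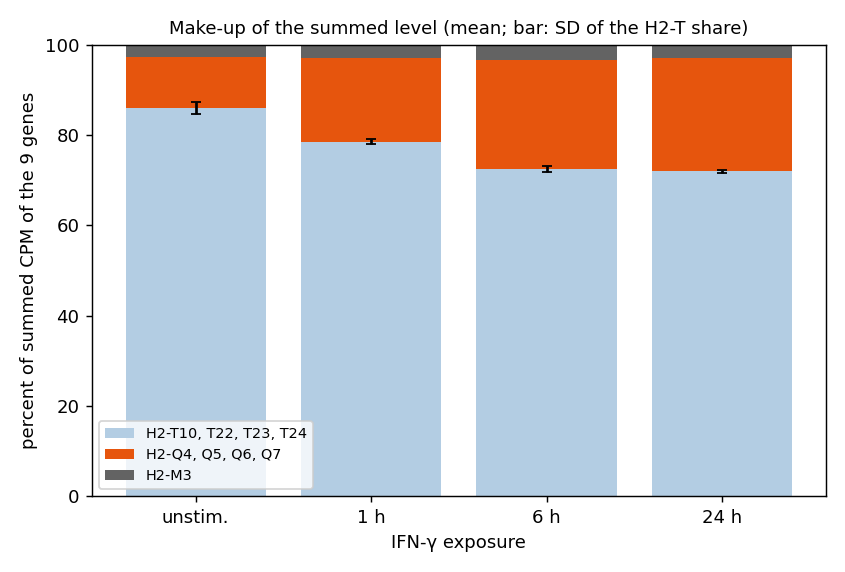
Percent of the summed CPM of the 9 genes (vertical axis, from 0 to 100) held by the 4 H2-T genes, the 4 H2-Q genes and H2-M3, as means of 3 libraries by IFN-γ exposure; the bar is the SD of the H2-T share. The H2-Q part was 11.2% in unstimulated cells and 24.2% and 25.2% after 6 h and 24 h.

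Classical heavy chains need the light chain, peptide supply and loading to reach the surface. This does not hold for all of the 9, since H2-T22 and H2-T10 hold no peptide and H2-Q4 encodes a secreted molecule. The genes of these steps are given beside the 9 for comparison. After 24 h H2-K1 was higher by 2.57 ± 0.05, H2-D1 by 1.97 ± 0.05 and B2m by 1.79 ± 0.06 on the log2 scale (adjusted p of 3.17e-17 or below). All 13 genes of peptide loading and supply were higher after 24 h, with a median log2 fold change of 1.23; Tap1, a subunit of the peptide transporter, had 3.08 ± 0.06 and Psmb9, a subunit of the immunoproteasome, 2.76 ± 0.07. After 6 h 2 of the 13 were higher, Tap1 by 0.61 ± 0.06 (adjusted p = 1.21e-07) and Psmb9 by 0.47 ± 0.08 (adjusted p = 0.000439), and 1 was lower, the chaperone Pdia3 (-0.18 ± 0.04, adjusted p = 0.022). The median of this list after 6 h was -0.01, against 0.89 for the 9 genes and 0.86 for H2-K1, H2-D1 and B2m. All 3 of the latter were called higher after 6 h and after 1 h.

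Of 9 regulators of class I transcription examined, 4 were higher after 24 h and none was lower. They were Irf1 (4.39 ± 0.06), Nlrc5 (2.61 ± 0.05), Irf8 (1.4 ± 0.06) and the RFX subunit Rfx5 (0.20 ± 0.05, adjusted p = 0.00718). After 6 h only Nlrc5 was called, at 44.3 ± 0.466 CPM against 32.5 ± 0.299 CPM in unstimulated cells (log2 fold change 0.45 ± 0.05, adjusted p = 8.67e-07). Irf1 was at 12.1 ± 0.579 CPM after 6 h against 10.6 ± 0.245 CPM in unstimulated cells (0.19 ± 0.06, adjusted p = 0.109, or 0.0486 with a GC trend removed). After 1 h Nlrc5 was higher by 0.26 ± 0.05 (adjusted p = 0.00786), a call that was lost without unstimulated replicate 1 (adjusted p = 0.0571) or 3 (0.0669) or IFNg_1h replicate 3 (0.096).

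The class I receptor genes examined were nearly absent from these cells. Of 9 such receptor genes in the table, 7 were at 0 in all 12 libraries, among them Klrd1 and Klrc1, the genes of CD94 and NKG2A, and Cd8a. No gamma delta T cell receptor gene was among these 9. The gene with the most counts, Pirb, an inhibitory receptor for class I on B cells and myeloid cells, was at 0.955 ± 0.262 CPM after 24 h against 0.619 ± 0.147 CPM in unstimulated cells (log2 fold change 0.62 ± 0.33, adjusted p = 0.21). After 6 h Pirb was at 0.250 ± 0.0607 CPM and after 1 h at 0.362 ± 0.107 CPM, and neither was called against unstimulated cells (-1.30 ± 0.38 with adjusted p = 0.0839, and -0.77 ± 0.36 with adjusted p = 0.517). Pirb was higher after 24 h than after 6 h (1.92 ± 0.37, adjusted p = 0.000351) and than after 1 h (1.39 ± 0.35, adjusted p = 0.00472).

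The genes whose level over the 12 libraries was most like the mean of the 9 (Pearson r of log2 CPM, 10931 genes compared) were H2-K1 (0.997), H2-D1 (0.996), B2m (0.992), Slfn8 (0.987) and Cybb (0.986). Over the 4 group means of the percent of the 24 h level, they were Clec2i, Acat2, Btg1, Baz2a and Far1, each with r above 0.9999; with 4 points, and with the 24 h group apart from the rest, many genes reach such values. Both are descriptions over libraries that share the 24 h contrast.

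Class I genes are close relatives, so counts can be split between them. Of all 125-base stretches of their transcripts, the read length used, 89.0% were unique to H2-Q4, 91.1% to H2-Q5, 91.8% to H2-Q6, 91.5% to H2-Q7, 98.8% to H2-T23 and all to H2-T24 and H2-M3. Only transcripts in the GENCODE annotation were searched. Reads of a class I copy absent from it could be counted under a relative, which these shares do not show. For H2-T10 (76.6%) and H2-T22 (74.4%) most shared stretches lay in antisense genes. BC023719, antisense to H2-T10, had at most 14 counts in a library, and A930015D03Rik, antisense to H2-T22, H2-T23 and H2-T24, had 41 to 73 counts per library after 24 h and 35 to 46 in unstimulated cells. The library kit marks strand; whether strand and reads with several matches were used in counting is not given in the sources used here, so the H2-Q and antisense values are uncertain to that extent.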

How the data were processed

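The deposited table holds whole-number counts per gene, which the authors made with STAR 2.5.2a and featureCounts 1.4.3-p1 on mm10, per the submitters' processing notes; Picard is also named there. Of counts from 1 to 20, between 69.9% and 73.9% per library were even, so mates of a pair may have been counted singly. Counts of the 9 genes were even in 46.3%, but over counts of any size, so the shares are not comparable. Counts were fitted as deposited with edgeR 4.0.16 (robust quasi-likelihood test, filterByExpr, TMM) in R 4.3.3 over all 12 libraries, with group as the only term and 8 residual degrees of freedom. P-values were adjusted by Benjamini-Hochberg over 14299 genes. CPM used TMM library sizes. Gene models were GENCODE M21 on GRCm38; promoters came from RefSeq (GRCm38.p6). Alternatives were DESeq2 1.42.0, limma-voom (limma 3.58.1), other filters, scalings, thresholds and samples, and counts halved to read pairs. The genes and lists were chosen with earlier results of these data known. All 9 genes were named; of other lists, the light and classical chains, the 2 largest called changes, or every called gene where 5 or fewer were called. Pdia3, Pirb, H2-T-ps and H2-K2 were picked after their values were seen. The same fit was also run on simulated data, which took their levels and spread from the fit to these data. A further regulator of class I transcription is not reported here.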

Additional observations from a re-analysis of the deposited data

How the results depend on the processing

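All 9 genes were called, and higher, in each of the 3 comparisons with 24 h cells under every alternative run. After 6 h the 5 calls became 6 with DESeq2, with the filter of 1 count in any library, with the replicate block and with a length or GC trend removed (H2-M3 each time), 4 when a log2 fold change of at least 1 was asked for (H2-T10 lost, at 0.89), and 5 to 6 when 1 library was left out. After 1 h the 2 calls became 1 when a log2 fold change of at least 1 was asked for and 4 with the filter of 1 count in any library, and were 2 to 3 with 1 library left out. Between 6 h and 1 h the 1 call became 0 with the fold threshold, 2 with DESeq2, with the 1-count filter and with the replicate block, and 1 to 2 with 1 library left out (2 without IFNg_6h replicate 1, adding H2-T10). Whether replicate numbers pair the samples was not settled. Same-numbered libraries of different groups correlated at -0.302 to 0.231 in their deviations from group means, 8 of 18 above 0.1. The negative values all involved the 1 h group. Of 36 best matches, 16 had the same number. The block gave 3 calls after 1 h, where it adds H2-Q6 (DESeq2 also gave 3). With 1 library left out, the log2 fold change after 1 h ranged from -0.0195 to 0.0483 for H2-T22, -0.133 to 0.0335 for H2-T23 and -0.039 to 0.0952 for H2-T24. For all genes the counts of calls moved more: after 6 h 228, against 374 with DESeq2, 413 with the 1-count filter, 95 with only the 6 libraries compared, 80 at an adjusted p under 0.01, 21 with the fold threshold and 89 (without unstimulated replicate 1) to 531 (without IFNg_6h replicate 3) with 1 library left out; after 1 h 60, against 116, 174, 104, 21, 3 and 15 to 122 (without the same libraries); between 6 h and 1 h 14, against 34, 36, 9, 8, 2 and 8 (without IFNg_1h replicate 2 or 3) to 24 (without IFNg_6h replicate 3), and 9 with limma-voom. Against unstimulated cells, 24 h gave 2667 calls, 1562 at an adjusted p under 0.01 and 381 with the fold threshold; against 6 h 2366, 1403 and 336; against 1 h 2707, 1650 and 373. The cause of these shifts was not tested. Depth limits H2-Q7 and H2-Q6 most, with 9 and 57 counts in unstimulated cells.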

Other observations

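Other class I genes of the H2 region were hardly detected. Of 26 further non-classical genes listed, 17 were in the table, none had enough counts for the test, and 12 of them were at 0 in all libraries; their summed level was at most 0.137 CPM in a 24 h library, against at most 0.136 CPM in an unstimulated one. The pair of pseudogenes H2-T-ps and H2-K2, picked after their values were seen, was measurable: H2-T-ps had 4.08 ± 0.232 CPM after 24 h against 2.81 ± 0.275 CPM in unstimulated cells (log2 fold change 0.54 ± 0.14, edgeR adjusted p = 0.00748), and H2-K2 had 2.5 ± 0.165 CPM against 1.57 ± 0.204 CPM (0.67 ± 0.19, edgeR adjusted p = 0.0117; 0.0585 without unstimulated replicate 3).

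Among class I-like genes outside the H2 region, 6 of the 14 in the table were tested and 3 were called after 24 h in edgeR. Cd1d1, which presents lipids to NKT cells, was at 2.33 ± 0.140 CPM after 24 h against 1.13 ± 0.0258 CPM in unstimulated cells (log2 fold change 1.04 ± 0.20). Ulbp1, a ligand of the activating receptor NKG2D, was at 11.2 ± 0.553 CPM against 8.08 ± 0.818 CPM (0.48 ± 0.10). Hfe, which takes part in iron sensing, was lower, at 0.118 ± 0.0546 CPM against 0.452 ± 0.118 CPM (-1.89 ± 0.52, edgeR adjusted p = 0.00974), a call lost without IFNg_24h replicate 2 (adjusted p = 0.0617) or unstimulated replicate 1 (adjusted p = 0.0674).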
